A study of Mus musculus with 18 samples.

Results

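The comparison described here is between wild-type (WT) NIH-3T3 cells exposed to carfilzomib (CFZ) for 24 h and the same line exposed for 6 h. The NIH-3T3 line was derived long ago from mouse embryo fibroblasts, and CFZ is an irreversible inhibitor of the proteasome's catalytic core. The 2 groups were taken by the genotype, agent and time point in the sample labels, and they hold 6 of the 18 mRNA-seq libraries of the series, 3 per group. All expressed genes were compared, which were 11762 of the 23420 genes in the count table. WT cells in vehicle (DMSO, 3 libraries, no time point given) served to define which genes had already changed at 6 h. A line of the same cells in which the transcription factor NFE2L1 (called Nrf1 in the study) was knocked out by CRISPR/Cas9 (Nrf1-KO), exposed to CFZ for the same times, served to ask whether a change was shared. CFZ was used at 200 nM throughout. Whether the knockout line is a single clone is not given in the sources used here. The libraries of a group are biological replicates of a cell line, so p-values measure the spread between cultures of that line.

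When the proteasome is blocked, damaged and short-lived proteins accumulate and several transcription programs are switched on. NFE2L1, which is normally extracted from the endoplasmic reticulum (ER) and destroyed, is instead processed and raises the genes of proteasome subunits. Heat shock factor 1 (HSF1) raises cytosolic chaperones, the unfolded protein response (UPR) raises ER chaperones and, through ATF4 and CHOP, amino acid supply and stress genes, and NRF2 raises antioxidant enzymes. Degradation of the inhibitors of NF-kB and of cell cycle regulators also needs the proteasome. A time course separates the parts of such a response that come and go from those that keep building.

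The number of counted reads was 13905960, 14380452 and 13834196 at 6 h and 10069996, 17176980 and 16636985 at 24 h, so replicate 1 at 24 h was the shallowest of the 6. Replicates correlated at 0.995 or more over genes (log2 CPM, a description over genes that are not independent), and libraries of different times at 0.959 to 0.961. No pair of replicates agreed within sampling noise (chi-square per degree of freedom from 1.46 to 2.09). Fibroblast markers were abundant, with a sum over 10 genes of 33080 to 35730 CPM in DMSO, 26330 to 28430 at 6 h and 7884 to 8217 at 24 h (CPM by library size), and Lum under 1 CPM. Epithelial markers summed to at most 1.16 CPM under CFZ, with Epcam, Krt8, Krt18 and Cldn4 at 0. In DMSO their sum was 6.24 to 6.83 CPM, nearly all of it Cdh1. Cdh1 averaged 6.4 CPM in DMSO, 1.02 at 6 h and 0.54 at 24 h. Of 6 blood markers the sum was 0.348 to 1.15 CPM at 6 h and 9.14 to 9.80 at 24 h, all but a little of it Csf1r and Cd68, while Ptprc and Cd3e were at 0. The 5 endothelial markers summed to 0.361 to 0.904 CPM at 6 h and 3.28 to 4.03 at 24 h, mostly Cdh5. In bulk RNA, fewer cells of a kind and less RNA per cell cannot be told apart, and every level below is a share of the library's mRNA. Whether cells were lost by 24 h was not measured in these files.

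Between 6 h and 24 h of CFZ most expressed genes moved, and most moved little. At a Benjamini-Hochberg adjusted p below 0.05 in edgeR's quasi-likelihood test, 4345 genes were higher at 24 h (36.9% of those tested) and 4165 were lower (35.4%). Of these, 607 were at least 2-fold higher (5.16%) and 814 at least 2-fold lower (6.92%), the fold being the estimate and not a tested minimum. The shares of 36.9% higher and 35.4% lower are the background for every count of list members below. The 3 libraries of each time did not overlap in 8861 genes (75.3%). That share is the background for every statement below that libraries of the 2 times lie apart. The median log2 change over all genes tested was 0.01. Levels are given as CPM (reads of a gene relative to the library total, after TMM scaling), replicate 1 to 3, and changes as log2 fold changes of 24 h against 6 h with their standard error (SE).

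**Figure D1:**
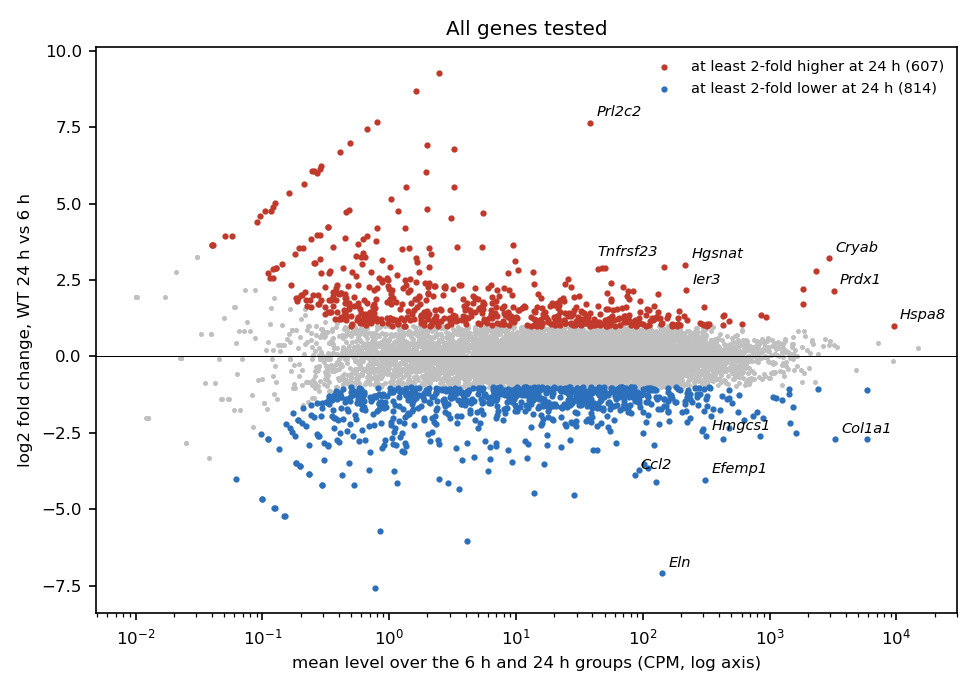
Each point is a gene, with its mean CPM over the 6 WT CFZ libraries on a log axis and its log2 fold change of 24 h against 6 h. Red points are the 607 genes called at least 2-fold higher and blue points the 814 called at least 2-fold lower. Names mark some of the genes described in the text, among them Prl2c2 (7.65), Cryab (3.21) and Eln (-7.10).

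Genes that had responded by 6 h followed different courses afterwards. At 6 h, 468 genes were at least 2-fold above DMSO (3.98% of genes tested) and 665 at least 2-fold below (5.65%). Of the 468 early rises, 219 (46.8%) grew further by 24 h, 101 (21.6%) held, 119 (25.4%) receded but stayed above DMSO, 21 (4.49%) returned to a level not told from DMSO, and 8 (1.71%) reversed to below DMSO. Of the 665 early falls, 241 (36.2%) deepened, 282 (42.4%) held, 60 (9.02%) receded, 58 (8.72%) returned and 24 (3.61%) reversed to above DMSO. The early rises that grew had a median log2 change of 1.41 at 6 h and 2.08 at 24 h against DMSO, while those that receded went from 1.51 to 1.02. The early falls that deepened went from a median of -1.32 to -2.46. A further 462 genes rose and 633 fell at least 2-fold between 6 h and 24 h without a 2-fold change at 6 h. The 6 h libraries enter both steps, so chance deviations at 6 h push the 2 steps in opposite directions, and "held" means only that no change passed the test. DMSO has no stated time, so in any comparison with it hours of CFZ and hours in culture cannot be told apart. Which course was the most frequent depended on the minimum fold. With a minimum of 1.5-fold for the later step, 106 early rises grew and 291 held, and with a minimum of 1.5-fold for the early change, 694 early falls deepened and 578 held.

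**Figure D2:**
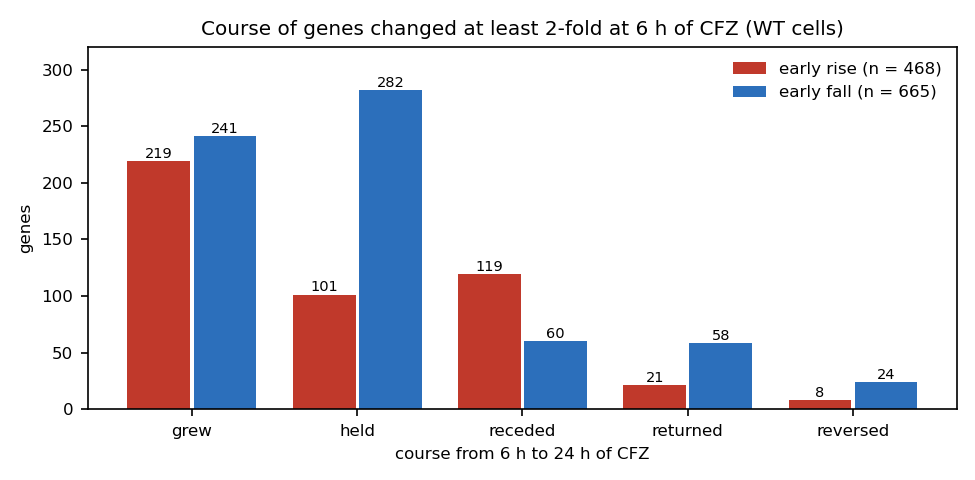
Bars count the genes at least 2-fold above DMSO (red, 468) or below DMSO (blue, 665) at 6 h of CFZ, by their course from 6 h to 24 h. Of early rises 219 grew and 101 held, and of early falls 241 deepened and 282 held.

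The named examples of each course differ in size. Among early rises that grew, Dusp4, a phosphatase that restrains MAP kinases, stood at 0.203, 0.354 and 0.862 CPM in DMSO, 2.88, 3.2 and 4.22 at 6 h and 25, 23 and 23.1 at 24 h (log2 fold change 2.77, SE 0.12, adjusted p = 1.7e-19). Held rises included Prkab2, a subunit of the energy sensor AMPK, at 10.4, 13 and 13.1 CPM in DMSO, 59.6, 59.6 and 59 at 6 h and 63.4, 62.5 and 63.5 at 24 h, and Spry4, an inhibitor of growth factor signalling, at 0.964, 0.945 and 0.729 CPM in DMSO, 6.75, 5.53 and 4.59 at 6 h and 7.01, 6.48 and 6.88 at 24 h. Library size scaling alone put both past the threshold as small rises (adjusted p = 0.034 and 0.041), as did leaving out replicate 1 at 6 h for Spry4 (adjusted p = 0.019). Serpinh1, the collagen chaperone of the ER, showed the largest reversal in absolute level, at 1208, 1189 and 1179.9 CPM in DMSO, 2869.6, 2772 and 2659 at 6 h and 472, 486 and 498 at 24 h CPM (log2 fold change -2.51, SE 0.037, adjusted p = 1.3e-31). All 3 of its 24 h libraries lay below all 3 DMSO libraries, after every 6 h library had lain above them. Serpina3i, a serine protease inhibitor of a gene cluster, returned to a level not told from DMSO (3.14, 3.66 and 3.58 CPM in DMSO, 22.1, 23.7 and 19.9 at 6 h and 2.24, 3.24 and 3.22 at 24 h). Serpina3h, of the same cluster, reversed to slightly below DMSO (36.5, 32.6 and 36.6 CPM in DMSO, 229, 213 and 212 at 6 h and 26, 31.5 and 29.3 at 24 h).

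Early falls that came back include genes of several kinds. Plat, the tissue plasminogen activator, stood at 46.6, 46.6 and 49.6 CPM in DMSO, 12.1, 12.5 and 11.4 at 6 h and 86, 88 and 91.6 at 24 h (log2 fold change 2.88, SE 0.061, adjusted p = 1.3e-27), so that its lowest group was 6 h and its highest 24 h. Tcp11l2 followed the same path with 27.5, 24.7 and 27 CPM in DMSO, 9.4, 11.7 and 11.6 at 6 h and 77.8, 80.4 and 77 at 24 h. Masp1, a complement-activating protease, and Rnf122, a ubiquitin ligase, fell early and also reversed, with later changes of 2.34 and 2.17. Zfc3h1 (1.04), Dbc1 (1.04), Prickle2 (0.97) and Nckap5l (0.97) returned. Held falls included Serpinb8, Cd24a, Mov10 and Pif1, whose changes after 6 h ran from -0.06 to 0.17 and did not pass the test. Adamts1, a matrix-cutting protease, receded from its early fall, with 159, 167 and 158 CPM in DMSO, 75.2, 70.6 and 74.3 at 6 h and 151, 148 and 147 at 24 h CPM. Each 24 h library had come most of the way back to the DMSO level.

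Proteasome genes, the direct targets of NFE2L1, kept their early rise as lists, and few of them moved much further. Of the 14 subunits of the 20S core, 11 rose between 6 h and 24 h and none fell, against 36.9% and 35.4% of all genes. Their median change was 0.20, and their median against DMSO was 1.04 at 6 h and 1.33 at 24 h. Of the 19 subunits of the 19S regulatory particle, 10 rose, 2 fell and 7 did not pass the test (median 0.07). Their median against DMSO was 1.42 at 6 h and 1.55 at 24 h. No core subunit and 1 regulatory subunit, Psmd8, rose 2-fold. Psmb3, a subunit of the core's beta ring, had 349, 344 and 341 CPM at 6 h and 493, 500.2 and 508 CPM at 24 h (log2 fold change 0.54, SE 0.033, adjusted p = 1.4e-15). It was the core subunit with the largest later rise. Psma6, of the alpha ring, had 207, 214 and 198 CPM at 6 h and 194, 197 and 190.5 CPM at 24 h (log2 fold change -0.09, SE 0.044, adjusted p = 0.06). Psma6 was past the threshold as a fall under upper-quartile scaling, without a count filter, with 9 or 6 libraries in the fit and without replicate 1 or 3 at 6 h or replicate 1 of DMSO (log2 fold changes from -0.16 to -0.10 in these). Psma1 (0.07) and Psma7 (0.07) did not pass the test, and both passed with library size alone, as did Psma1 without replicate 1 at 24 h. Psmd8, a lid subunit, rose from 197, 199.9 and 195 CPM to 389, 419.7 and 405 CPM (log2 fold change 1.04, SE 0.038, adjusted p = 2.2e-21). Psmd4, a ubiquitin receptor of the proteasome, rose by 0.53, and Psmc2 and Psmd7 fell by 0.21 and 0.23. Psmc4 (0.37) and Psmb7 (0.35), also measured by the study, rose, and Psmd12 changed by 0.04 (adjusted p = 0.28). For Psma5 (0.35), 17.5% of the read-length stretches of the transcript are shared with other genes, which makes its count less certain.

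Of 13 proteasome assembly chaperones and activators 6 rose and 4 fell, counts not far from the shares over all genes (36.9% higher and 35.4% lower). Psmd9, an assembly chaperone of the regulatory particle, stood at 29.1, 30.7 and 31.9 CPM at 6 h and 61.2, 63 and 60.6 CPM at 24 h (log2 fold change 1.01, SE 0.054, adjusted p = 5.3e-17), and 25.5% of its exonic bases lie under a gene of the opposite strand. Psmf1, a protein that inhibits the core in the test tube, rose by 0.68. The dedicated core assembly chaperones Psmg1 (-0.80) and Psmg4 (-0.62) fell, as did Psmg2 (-0.45) and Psmd5 (-0.36), which were named after their values were seen.

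NFE2L1's own mRNA (Nfe2l1, chromosome 11 from 96817414 to 96829968 on GRCm38) stood at 457, 437 and 449 CPM in DMSO, 650.4, 648 and 628 at 6 h and 559, 555 and 580.0 at 24 h CPM (log2 fold change -0.18, SE 0.032, adjusted p = 6.9e-06), so its early rise receded in part. Its partners, the small Maf proteins, rose. Mafk had 43.8, 43.5 and 44.4 CPM at 6 h and 116, 112 and 108 CPM at 24 h (log2 fold change 1.35, SE 0.042, adjusted p = 5.3e-23), and Maff rose by 0.96 after 2.42 at 6 h. Ngly1, the enzyme that strips sugars from NFE2L1 and is needed for its activity, fell from 34.2, 35.2 and 30.0 CPM to 13.9, 15.9 and 17.4 CPM (log2 fold change -1.05, SE 0.088, adjusted p = 3.4e-12). Of the 12 genes tested of NFE2L1 and its regulators, 5 rose and 3 fell, not far from the shares over all genes (36.9% and 35.4%). The third that fell was Keap1 (-0.12, named after its value was seen).

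Genes of ubiquitin, p97 and the proteasome shuttles went different ways, with 10 of 20 higher at 24 h and 5 lower (median 0.12). Over all genes 36.9% were higher and 35.4% lower. Ubb, which encodes a chain of ubiquitin repeats, stood at 131, 119 and 129 CPM in DMSO, 497, 493 and 463 at 6 h and 1198, 1231 and 1273 at 24 h CPM (log2 fold change 1.35, SE 0.045, adjusted p = 1.9e-22). Each of its 24 h libraries was above every 6 h library, and each of those above every DMSO library. Of Ubb's read-length stretches 40.9% occur in other genes. Ufd1l, a cofactor of the p97 unfoldase, rose by 0.69.

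**Figure D3:**
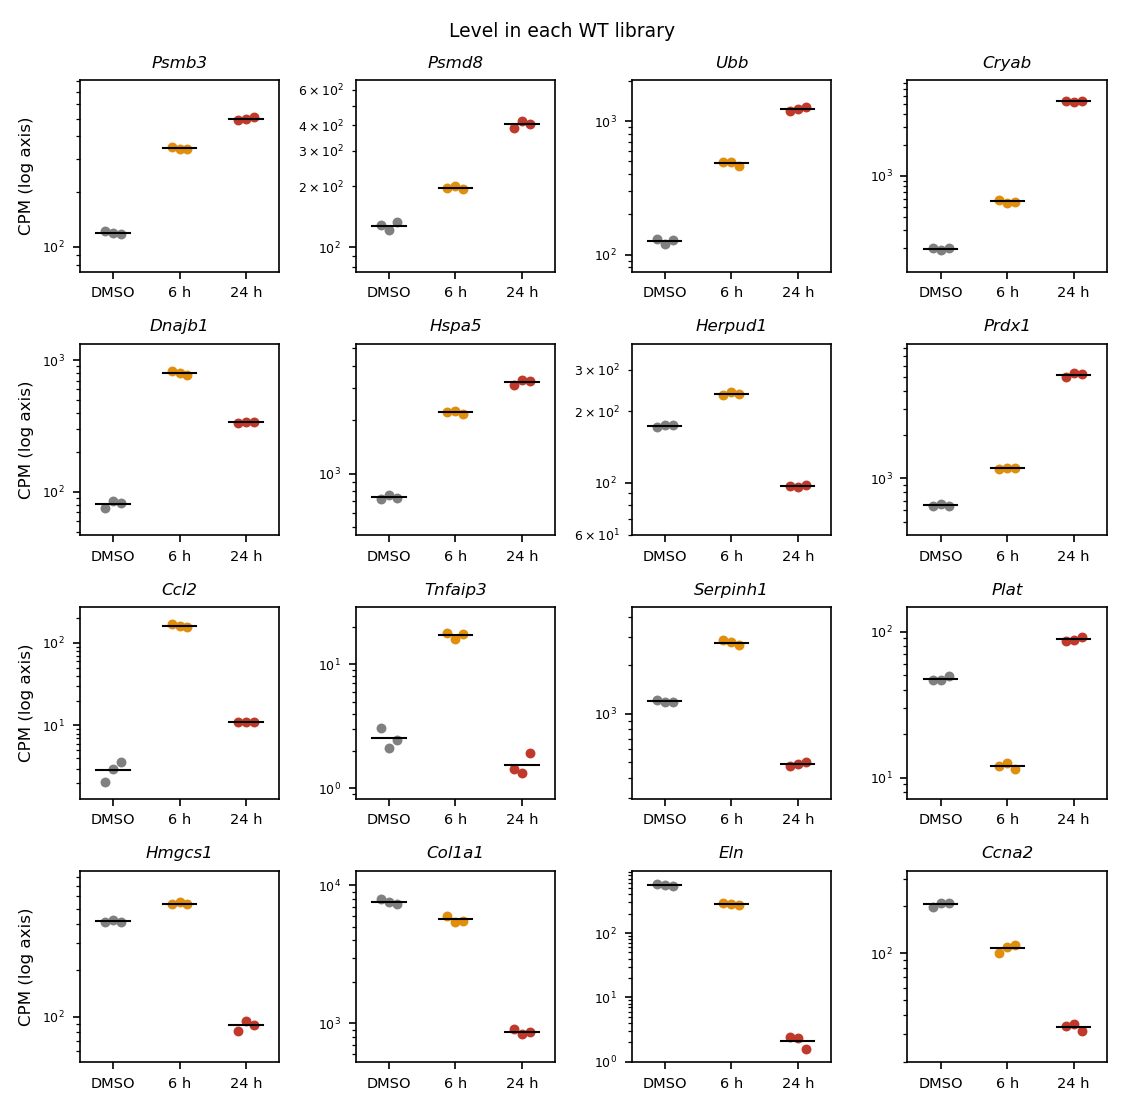
Each panel gives a gene's CPM (log axis, a scale of its own) in the 3 WT libraries in DMSO, at 6 h and at 24 h of CFZ, with a line at the mean. Psmb3, Psmd8, Ubb, Cryab, Hspa5 and Prdx1 climb at both steps, Dnajb1, Herpud1, Ccl2, Tnfaip3 and Serpinh1 peak at 6 h, Plat dips at 6 h, and Hmgcs1, Col1a1, Eln and Ccna2 end lowest at 24 h.

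Cytosolic chaperones, targets of HSF1, had risen strongly by 6 h and most then fell, while the small heat shock protein Cryab kept climbing. Of 27 members tested, 16 fell and 8 rose between 6 h and 24 h (median -0.30, after 1.84 at 6 h). Their median at 24 h was still 1.47 above DMSO. Dnajb1, a co-chaperone of HSP70 and a standard HSF1 target, stood at 75.1, 85.5 and 82 CPM in DMSO, 833, 803 and 777 at 6 h and 333, 337 and 339 at 24 h CPM (log2 fold change -1.26, SE 0.043, adjusted p = 3.7e-22). Fkbp4, a co-chaperone of HSP90, had 228, 238 and 223 CPM in DMSO, 396, 376 and 387 at 6 h and 164, 164 and 158 at 24 h CPM (log2 fold change -1.26, SE 0.038, adjusted p = 1.6e-23). For both, each 24 h library was below each 6 h library, and for Fkbp4 also below each DMSO library. Cryab (alpha B-crystallin), chromosome 9 from 50751325 to 50756636, stood at 199, 190.1 and 199 CPM in DMSO, 587, 554 and 566 at 6 h and 5281, 5230.0 and 5314 at 24 h CPM (log2 fold change 3.21, SE 0.041, adjusted p = 2.9e-33). Its later rise was 1 of the 12 largest among genes that met the minimum of 50 counts. Hspa8, the constitutive HSP70, reached 12536, 12909 and 12500.3 CPM from 6349, 6416 and 6154 CPM (log2 fold change 1.0, SE 0.036, adjusted p = 2.3e-21), with 25.1% of its read-length stretches shared with other genes. Dnaja4, another HSP70 co-chaperone, held its early rise (6.04, 6.26 and 6.43 CPM in DMSO, 26.7, 28.5 and 25.9 at 6 h and 23.1, 24.9 and 25.4 at 24 h), with a change of -0.14 (adjusted p = 0.084) that passed under upper-quartile scaling, without a count filter, with only the WT libraries, with only the 6 WT CFZ libraries, and without replicate 1 of DMSO or replicate 1 or 3 at 6 h (down to -0.21). Of its exonic bases, 44.1% lie under a gene of the opposite strand. The chaperonin TRiC, which folds actin and tubulin, had 3 of 8 subunits higher (Cct2 by 0.53) and 3 lower (Cct3 by -0.29), close to the shares over all genes (36.9% and 35.4%).

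HSF1 binds repeats of nGAAn units, and a pair of such units facing each other was searched for in promoter windows (GAANNTTC or TTCNNGAA, both strands, 250 bases before to 50 after each start in RefSeq, GRCm38.p6). Of the 21 chaperone genes with a window, 13 held a pair (61.9%), against 14% (1312) of the 9373 genes tested with a window. The windows of a chaperone that held and of one that fell below DMSO are printed with the pairs in capitals.
Dnaja4 (chr9:54699309-54699608, plus strand): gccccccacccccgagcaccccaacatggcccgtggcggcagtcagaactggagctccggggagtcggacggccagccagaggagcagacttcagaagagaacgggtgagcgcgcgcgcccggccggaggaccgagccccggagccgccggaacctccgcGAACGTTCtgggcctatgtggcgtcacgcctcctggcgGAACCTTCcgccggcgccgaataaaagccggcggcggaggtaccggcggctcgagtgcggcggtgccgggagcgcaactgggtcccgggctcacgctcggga
Fkbp4 (chr6:128438607-128438906, minus strand): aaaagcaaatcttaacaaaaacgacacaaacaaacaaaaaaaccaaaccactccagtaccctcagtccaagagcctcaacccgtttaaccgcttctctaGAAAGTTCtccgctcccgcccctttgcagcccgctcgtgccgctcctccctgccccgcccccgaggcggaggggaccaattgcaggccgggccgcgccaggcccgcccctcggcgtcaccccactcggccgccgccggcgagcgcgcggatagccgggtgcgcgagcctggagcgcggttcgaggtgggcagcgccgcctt
The pairs begin at bases -90 and -52 of Dnaja4 and -151 of Fkbp4, counted from the start site on the gene's strand. Another window of Dnaja4 (chr9:54699033-54699332), not printed, holds no pair. A match is a description of letters and shows no binding.

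Genes of ER protein folding and disposal moved apart. Of 27 tested, 14 rose and 10 fell (median 0.09, after 0.45 at 6 h), against 36.9% and 35.4% of all genes. Hspa5 (BiP), the main ER HSP70, went on rising (724, 763 and 728 CPM in DMSO, 2215, 2238 and 2159 at 6 h and 3124, 3323 and 3278 at 24 h CPM, log2 fold change 0.56, SE 0.034, adjusted p = 1.8e-15). Hyou1, its exchange factor, had 189, 193 and 188 CPM at 6 h and 343, 337 and 344 CPM at 24 h (log2 fold change 0.85, SE 0.035, adjusted p = 6.4e-20). Ero1lb, an oxidase that drives disulfide formation, rose from 7.51, 7.86 and 7.31 CPM to 20.5, 20.9 and 21 CPM (log2 fold change 1.46, SE 0.094, adjusted p = 5.5e-15), with 6.27% of its stretches shared. Ern1, the UPR sensor IRE1, rose by 0.77. In contrast Herpud1, which organises ER-associated degradation, stood at 172, 175 and 175 CPM in DMSO, 235, 242 and 237 at 6 h and 96.3, 95.8 and 97.5 at 24 h CPM (log2 fold change -1.30, SE 0.034, adjusted p = 4.1e-25), and Xbp1, the transcription factor activated by IRE1, at 127, 127 and 132 CPM in DMSO, 189.8, 192 and 196 at 6 h and 95.2, 102 and 98.4 at 24 h CPM (log2 fold change -0.96, SE 0.038, adjusted p = 1.6e-20). Both ended below DMSO in every library. The CCAAT letters, part of the ER stress element, stood in 20 of 23 windows of this list (87.0%), against 43.9% of all windows. This was not particular to the list. The share was 93.3% for cholesterol and fatty acid synthesis, 90.0% for the circadian clock and 89.5% for mitosis.

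Most genes of the ATF4 to CHOP axis and of amino acid synthesis and import fell after 6 h. Of 16 members of the axis 12 fell and 4 rose (median -0.60), against 35.4% and 36.9% of all genes. The 4 that rose were Ddit3, Nupr1 (0.30), Ifrd1 and Ppp1r15a, of which Nupr1 was named after its value was seen. Ppp1r15a (GADD34), which reverses the translation block, stood at 21.6, 19.9 and 20.3 CPM in DMSO, 93.3, 87.2 and 88.3 at 6 h and 179.8, 180.4 and 176 at 24 h CPM (log2 fold change 1.0, SE 0.042, adjusted p = 8.2e-20), and Ifrd1 rose by 0.58. Ddit3 (CHOP) had 126, 119 and 126 CPM at 6 h and 127, 135 and 142 CPM at 24 h (log2 fold change 0.13, SE 0.042, adjusted p = 0.0059). Its call was lost on leaving out replicate 1 of DMSO, any 1 of the 3 replicates at 6 h, or replicate 3 at 24 h (log2 fold change 0.07 to 0.11, adjusted p = 0.05004 to 0.206 in these 5). Atf3, a stress-induced repressor, was nearly level, with 157, 143 and 146 CPM at 6 h and 137, 133 and 137 CPM at 24 h (log2 fold change -0.13, SE 0.045, adjusted p = 0.0095). Vldlr, a lipoprotein receptor, fell by 1.67. Gdf15 had few reads, with 0, 0.118 and 0.0663 CPM in DMSO, 0.152, 0.51 and 0.301 at 6 h and 0, 0.12 and 0.062 at 24 h CPM, and its call as a fall was lost without replicate 2 at 6 h (adjusted p = 0.114) or replicate 3 at 24 h (adjusted p = 0.0508). The letters TGATGNAA of the ATF4 response element stood in 5 of 16 windows (31.2%), against 2.71% of all windows. This was not particular to the axis. The shares were 38.5% (5 of 13) for cytosolic aminoacyl-tRNA synthetases and 28.6% (2 of 7) for amino acid transporters. For serine, one-carbon, asparagine and proline synthesis the share was 18.2% (2 of 11).

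Of 13 genes for serine, one-carbon, asparagine and proline synthesis, 11 fell and 1 rose (median -0.93), against 35.4% and 36.9% of all genes. Their median against DMSO at 24 h was -0.67. Pycr1, the last enzyme of proline synthesis, had 34.8, 31.7 and 32.2 CPM in DMSO, 27.1, 24.9 and 26.6 at 6 h and 4.88, 5.88 and 6.26 at 24 h CPM (log2 fold change -2.18, SE 0.098, adjusted p = 6.1e-19). Mthfd2, of the mitochondrial folate pathway, had 151, 162 and 146 CPM in DMSO, 243, 245 and 249 at 6 h and 93.1, 96.4 and 97.4 at 24 h CPM (log2 fold change -1.36, SE 0.036, adjusted p = 6.6e-25), higher than DMSO at 6 h and lower at 24 h in every library. The gene that rose was Shmt1 (0.26), which did not pass without replicate 2 at 6 h (0.18, adjusted p = 0.087). Aldh1l2 changed by -0.02 (adjusted p = 0.66). Among 11 amino acid transporters 7 fell and 1 rose (median -0.62). Slc7a5, which imports large neutral amino acids, had 552, 612 and 579 CPM in DMSO, 692, 675 and 696 at 6 h and 273, 265 and 268 at 24 h CPM (log2 fold change -1.36, SE 0.045, adjusted p = 1.9e-22), and Slc7a1, for basic amino acids, fell by 1.25. Slc7a11, the cystine importer, held its early rise, at 54.3, 61.5 and 61.3 CPM in DMSO, 214, 206 and 226 at 6 h and 227, 229 and 232 at 24 h (log2 fold change 0.09, SE 0.05, adjusted p = 0.1). It passed as a small rise with library size alone and with only the 6 WT CFZ libraries. The transporter that rose, Slc7a6, did so by 0.10 (adjusted p = 0.028), and lost the call under upper-quartile scaling, without a count filter, with only WT libraries, and without replicate 1 of DMSO, any replicate at 6 h or replicate 3 at 24 h. Of the 20 cytosolic aminoacyl-tRNA synthetases 9 were higher and 9 lower, against 36.9% and 35.4% of all genes, from Gars (-0.63) and Tars (-0.61) to Aars (0.48, 12.5% of stretches shared) and Qars (0.65).

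**Figure D4:**
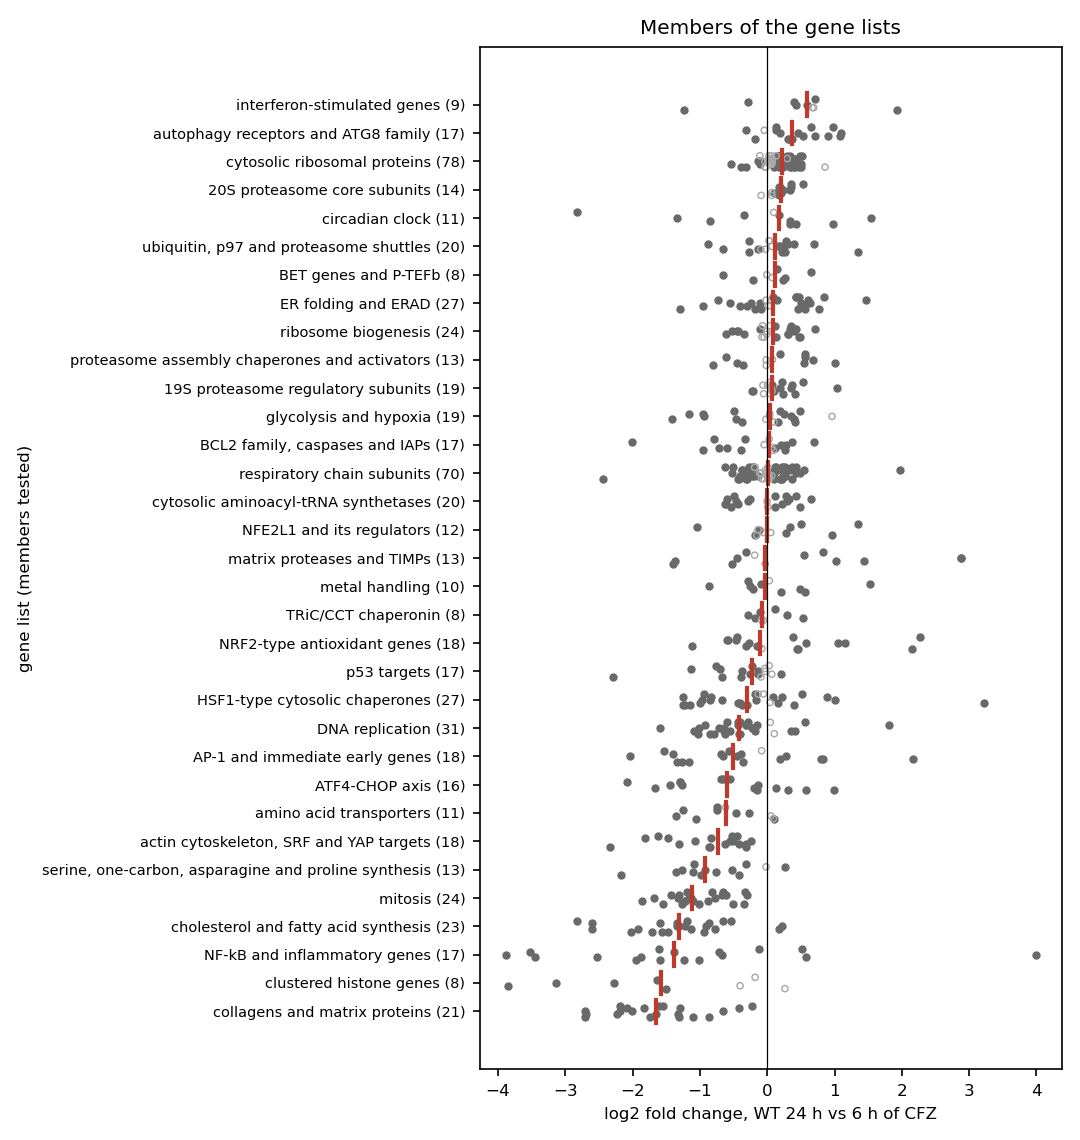
Each point is a member of a gene list, at its log2 fold change of 24 h against 6 h in WT cells, filled where the adjusted p was below 0.05. Red bars mark list medians, from -1.66 for collagens and matrix proteins to 0.59 for interferon-stimulated genes.

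Antioxidant genes of the NRF2 type did not move as a block. Of 18, 8 rose and 9 fell (median -0.11), against 36.9% and 35.4% of all genes. Prdx1, a peroxide-removing enzyme, stood at 646, 659 and 644 CPM in DMSO, 1166, 1183 and 1169.8 at 6 h and 5002, 5364 and 5262 at 24 h CPM (log2 fold change 2.15, SE 0.04, adjusted p = 4.1e-29). It had moved less than 2-fold at 6 h (0.85). Gsta4, which detoxifies lipid aldehydes, had 24, 24.2 and 24.3 CPM at 6 h and 117, 119 and 113 CPM at 24 h (log2 fold change 2.26, SE 0.052, adjusted p = 9.7e-27). Nqo1, a quinone reductase often used to report NRF2 activity, fell from 164, 172 and 170.1 CPM to 77, 78.5 and 78.8 CPM (log2 fold change -1.11, SE 0.039, adjusted p = 9.2e-22), below its DMSO level of 120.0, 110.0 and 109. Gstm1 fell by 0.60. The antioxidant response letters TGACNNNGC stood in 8 of 14 windows of the list (57.1%), against 17.0% of all windows, and in 2 of 11 windows of the 20S core and 4 of 16 of the regulatory particle. The window of Prdx1, a member with a late rise, holds a match that begins at base -133, in capitals.
Prdx1 (chr4:116685349-116685648, plus strand): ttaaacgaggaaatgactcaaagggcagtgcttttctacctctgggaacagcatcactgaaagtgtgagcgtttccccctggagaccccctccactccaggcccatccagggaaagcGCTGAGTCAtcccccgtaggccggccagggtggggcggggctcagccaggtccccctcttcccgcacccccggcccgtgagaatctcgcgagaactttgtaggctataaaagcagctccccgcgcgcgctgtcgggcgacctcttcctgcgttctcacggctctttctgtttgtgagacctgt
In metal handling 4 of 10 genes rose and 5 fell, against 36.9% and 35.4% of all genes. Tfrc, the transferrin receptor, rose from 54.8, 57.7 and 60.9 CPM to 167, 167 and 165 CPM (log2 fold change 1.53, SE 0.061, adjusted p = 2.8e-20) and metallothionein Mt1 by 0.56. The zinc exporter Slc30a1 fell by 0.87. The iron exporter Slc40a1 had a small change (-0.29, adjusted p = 0.033) that did not pass with library size alone or without replicate 2 at 6 h or replicate 2 or 3 at 24 h. The metal response letters TGCNCNC stood in 5 of 8 windows of this list (62.5%), no more than in all windows (64.1%).

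Genes of selective autophagy rose. Of 17 tested, 14 were higher at 24 h and 2 lower (median 0.36, against 0.01 over all genes and 36.9% of all genes called higher). Nbr1, a receptor for ubiquitylated cargo, stood at 175, 163 and 173 CPM in DMSO, 182, 185 and 182 at 6 h and 389, 384 and 387 at 24 h CPM (log2 fold change 1.08, SE 0.035, adjusted p = 1.3e-22). Gabarapl2, a member of the ATG8 family that coats autophagosomes, had 56.1, 60.2 and 62.5 CPM at 6 h and 129.5, 124.8 and 127 CPM at 24 h (log2 fold change 1.09, SE 0.056, adjusted p = 1.3e-17). Neither had moved 2-fold at 6 h. Atg5 (-0.31) and Gabarap (-0.18) fell. Hgsnat, a lysosomal enzyme of heparan sulfate breakdown, was among the largest late rises, with 60.5, 57.7 and 57.1 CPM in DMSO, 47.7, 48.9 and 47.3 at 6 h and 382, 388 and 385 at 24 h CPM (log2 fold change 3.01, SE 0.039, adjusted p = 6.5e-33).

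Most inflammatory genes were raised at 6 h and lower again at 24 h. Of 17 NF-kB and inflammatory genes tested, 14 fell and 3 rose between 6 h and 24 h (median -1.39, after 2.05 at 6 h), and 11 fell at least 2-fold. Over all genes tested 35.4% fell, 6.92% at least 2-fold, and 36.9% rose. The chemokine gene Ccl2, chromosome 11 from 82035571 to 82037453, had 2.08, 2.95 and 3.58 CPM in DMSO, 168, 161 and 155 at 6 h and 10.9, 11.1 and 10.9 at 24 h CPM (log2 fold change -3.88, SE 0.066, adjusted p = 4.1e-30). Its neighbour in function, Ccl7, had 10.1, 12.6 and 11.2 CPM in DMSO, 194, 194 and 177 at 6 h and 15.8, 18 and 15.2 at 24 h (log2 fold change -3.52, SE 0.078, adjusted p = 4.3e-27). At 24 h every library of both was above every DMSO library. Lying below every 6 h library was a condition for being among the 12 largest falls. Cxcl1, a neutrophil attractant, also receded (2.23, 1.3 and 1.46 CPM in DMSO, 24.9, 22.3 and 21.5 at 6 h and 7.62, 7.85 and 7 at 24 h CPM, log2 fold change -1.61, SE 0.092, adjusted p = 2.7e-16). Tnfaip3 (A20), which shuts NF-kB signalling off, had 3.04, 2.13 and 2.45 CPM in DMSO, 18, 16.1 and 17.5 at 6 h and 1.42, 1.32 and 1.92 at 24 h (log2 fold change -3.44, SE 0.15, adjusted p = 1.7e-19), ending below its DMSO level. Bcl3, an atypical IkB protein, returned (3.09, 2.42 and 2.19 CPM in DMSO, 8.34, 7.14 and 7.53 at 6 h and 2.64, 3.06 and 2.98 at 24 h CPM). The members that rose were Ptgs2 (0.51, named after its value was seen), Nfkbiz (0.58) and Icam1, the last with at most 1 read in any library at 6 h and 0.508, 0.42 and 0.62 CPM at 24 h.

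A kB site, the element bound by NF-kB, was searched as GGNNNTTCC on both strands, a motif added after the values had been seen. It stood in 7 of 10 windows of the list (70.0%), against 25.3% of all windows. Other lists also exceeded that share, with 54.5% (6 of 11) for the 20S core and 46.7% (7 of 15) for the actin, SRF and YAP list. Of all early rises with a window, it stood in 30.2% of those that receded and 33.3% of those that returned. The windows of a gene that receded and of one that returned are shown, the matches on either strand in capitals. The second, Bcl3, is not a member of the list.
Cxcl1 (chr5:90890995-90891294, plus strand): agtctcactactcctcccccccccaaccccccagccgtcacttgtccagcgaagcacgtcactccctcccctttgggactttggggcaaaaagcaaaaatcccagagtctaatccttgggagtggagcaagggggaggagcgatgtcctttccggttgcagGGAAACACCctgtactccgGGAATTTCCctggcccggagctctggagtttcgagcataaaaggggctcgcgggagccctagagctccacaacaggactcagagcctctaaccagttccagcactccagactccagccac
Bcl3 (chr7:19822706-19823005, minus strand): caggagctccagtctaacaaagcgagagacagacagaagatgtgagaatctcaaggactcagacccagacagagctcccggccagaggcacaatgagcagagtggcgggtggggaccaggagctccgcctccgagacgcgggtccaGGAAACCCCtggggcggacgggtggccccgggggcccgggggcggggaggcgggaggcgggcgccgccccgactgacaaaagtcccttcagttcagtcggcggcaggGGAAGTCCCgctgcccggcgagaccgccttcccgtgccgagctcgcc
The matches begin at bases -89 and -70 of Cxcl1 and at -104 and 4 of Bcl3.

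Most AP-1 and immediate early genes also fell between 6 h and 24 h. Of 18 AP-1 and immediate early genes 12 fell and 5 rose (median -0.51), against 35.4% and 36.9% of all genes. Egr1 had 18.1, 21.1 and 17.1 CPM in DMSO, 35, 30.4 and 27 at 6 h and 7.83, 6.9 and 7.87 at 24 h CPM (log2 fold change -2.04, SE 0.11, adjusted p = 1.7e-16), and Klf4, 455, 483 and 489 CPM in DMSO, 769, 741 and 731 at 6 h and 256, 262 and 253 at 24 h CPM (log2 fold change -1.54, SE 0.037, adjusted p = 5.1e-26). Both ended below DMSO. Ier3, a stress-induced survival gene, behaved in the opposite way, with 8.52, 8.8 and 7.82 CPM in DMSO, 82.1, 78.2 and 81.3 at 6 h and 356, 358 and 369 at 24 h CPM (log2 fold change 2.17, SE 0.035, adjusted p = 1.3e-30), and Dusp1 rose by 0.83. Among 9 interferon-stimulated genes 5 rose and 2 fell, against 36.9% and 35.4% of all genes. Irf1 had risen and returned (22.6, 26.2 and 23.9 CPM in DMSO, 56.6, 54.5 and 51.7 at 6 h and 21.3, 22.8 and 24.1 at 24 h CPM, log2 fold change -1.24, SE 0.059, adjusted p = 1.9e-18). Ifit1 rose from 0.607, 0.801 and 0.678 to 3.25, 2.22 and 2.79 CPM, and Stat2 rose by 0.72.

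Matrix genes, which define the fibroblast's product, fell across the board after 6 h. All 21 collagens and matrix proteins tested were lower at 24 h than at 6 h, 17 of them at least 2-fold, with a median of -1.66 (background 35.4% lower and 6.92% at least 2-fold lower). At 6 h the median against DMSO had been -0.24. Col1a1, a chain of type I collagen, chromosome 11 from 94936224 to 94953042, stood at 7975, 7569 and 7295 CPM in DMSO, 6049, 5442 and 5564 at 6 h and 916, 835 and 867 at 24 h CPM (log2 fold change -2.70, SE 0.098, adjusted p = 2.1e-21). Col3a1 had 1639, 1516 and 1624 CPM in DMSO, 759, 785 and 700.3 at 6 h and 111, 116 and 114 at 24 h CPM (log2 fold change -2.71, SE 0.045, adjusted p = 2.6e-30). For both, the 3 libraries at 24 h lay far below all those at 6 h. The basement membrane chains Col4a1 (-0.42) and Col4a2 (-0.22) changed least of the list. Elastin (Eln, chromosome 5 from 134702593 to 134747323) had the largest fall of all genes under the naming rule, with 581, 551 and 549 CPM in DMSO, 299, 283 and 269 at 6 h and 2.44, 2.34 and 1.55 at 24 h CPM (log2 fold change -7.10, SE 0.096, adjusted p = 1.2e-32). The 2 groups did not overlap, which was a condition for naming the 12 largest changes each way. It held for 75.3% of all genes tested.

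Several other secreted or matrix-linked genes were among the 12 largest falls. Efemp1, a fibulin, had 580.2, 594 and 574 CPM at 6 h and 34.1, 37.6 and 34.8 CPM at 24 h (log2 fold change -4.03, SE 0.044, adjusted p = 7.5e-35). Pcolce, an enhancer of procollagen trimming, had 242, 235 and 238 CPM at 6 h and 12.4, 13.9 and 14.9 CPM at 24 h (log2 fold change -4.10, SE 0.051, adjusted p = 2.8e-33). The heparin-binding growth factor Ptn changed by -3.73, asporin (Aspn) by -4.45, Wisp2 by -4.52, matrix Gla protein (Mgp) by -3.76 and tenascin R (Tnr) by -3.51. Smoc2, a matricellular protein, had 7.74, 9.98 and 6.7 CPM at 6 h and 0, 0.24 and 0.062 CPM at 24 h, so its estimate of -6.02 rests on few reads at 24 h. Gas1, a growth arrest gene, fell in both steps, with 829, 752 and 818 CPM in DMSO, 200.1, 206 and 202 at 6 h and 17.3, 15 and 16.9 at 24 h CPM (log2 fold change -3.64, SE 0.057, adjusted p = 4.7e-31). Fibroblast marker sums fell over the same interval (26330 to 28430 CPM at 6 h and 7884 to 8217 at 24 h), and Col1a1, Col1a2, Fn1, Dcn and Lum belong to both lists. Of the 9 fibroblast markers tested 8 fell, and Pdgfra, a growth factor receptor, rose (0.34, adjusted p = 4.3e-07). The part of cell composition in these falls was not tested.

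Of 13 proteases and inhibitors that act on the matrix 6 rose and 5 fell, not far from the shares over all genes (36.9% and 35.4%). Mmp2, a gelatinase, had 674, 677 and 653 CPM at 6 h and 251, 245 and 259.6 CPM at 24 h (log2 fold change -1.41, SE 0.037, adjusted p = 4.5e-25), and its inhibitor Timp3 had 1653, 1629 and 1597 CPM at 6 h and 630.3, 618 and 637 CPM at 24 h (log2 fold change -1.37, SE 0.034, adjusted p = 1.1e-25), with 21.3% of Timp3's exonic bases under a gene of the opposite strand. Adam8 and Adamts4, surface and secreted proteases, were among the largest rises (3.13 and 2.82). Adam8 went from 1.74, 1.38 and 2.86 to 17.6, 17.6 and 17.2 CPM. Mmp13 was at most 1 read in any library at 6 h and 0.203, 0.24 and 0.248 CPM at 24 h, and its rise was not called without replicate 1 or 2 at 6 h (adjusted p = 0.057 and 0.061).

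The actin cytoskeleton list, targets of the mechanosensitive factors SRF and YAP, fell as a whole. All 18 members were lower at 24 h than at 6 h (median -0.73), against 35.4% of all genes. At 6 h their median against DMSO had been 0.35. Acta2 (smooth muscle actin) had 495, 549 and 513 CPM in DMSO, 793, 799 and 791 at 6 h and 154, 160.3 and 156 at 24 h CPM (log2 fold change -2.34, SE 0.045, adjusted p = 9.1e-29). Ctgf, a YAP target, had 139.9, 171 and 139 CPM in DMSO, 236, 236 and 266 at 6 h and 72.3, 66.4 and 72.5 at 24 h CPM (log2 fold change -1.81, SE 0.061, adjusted p = 3.8e-22). Both peaked at 6 h and ended below DMSO. Flna (-0.32) and Lats2 (-0.24) changed least.

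Sterol synthesis genes fell almost without exception. Of 23 genes of cholesterol and fatty acid synthesis 21 fell and 2 rose (median -1.32, after 0.21 at 6 h), and 15 fell at least 2-fold. Over all genes 35.4% fell, 6.92% at least 2-fold, and 36.9% rose. Hmgcs1, which makes the precursor of mevalonate, had 412, 419 and 411 CPM in DMSO, 533, 548 and 533 at 6 h and 80.8, 94.2 and 88.4 at 24 h CPM (log2 fold change -2.61, SE 0.04, adjusted p = 4.7e-31). Idi1, an isoprenoid isomerase, had 80.4, 81.6 and 87.2 CPM in DMSO, 103, 108 and 110.0 at 6 h and 16.2, 14.3 and 15.1 at 24 h CPM (log2 fold change -2.83, SE 0.07, adjusted p = 7.8e-26), with 15% of its stretches shared. The members that rose were Acly (0.21) and Srebf1 (0.17), of which Acly feeds fatty acid synthesis with acetyl-CoA and Srebf1 encodes its main transcription factor. CCAAT stood in 14 of 15 windows (93.3%) against 43.9% of all. The sterol response letters TCACNCCAC, a motif added after the values had been seen, stood in 1 of 15 (6.67%), against 1.35% of all. In glycolysis and the hypoxia response 7 of 19 genes rose and 7 fell, as over all genes (36.9% and 35.4%). Ldha, lactate dehydrogenase, fell from 447, 458 and 474 to 171, 173 and 175 CPM (log2 fold change -1.41, SE 0.037, adjusted p = 3.5e-25), Adm by 1.16, and Pfkp rose by 0.49.

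Mitotic genes fell further between 6 h and 24 h, all 24 of 24 (median -1.12, after -0.61 at 6 h), against 35.4% of all genes. Of these, 14 fell at least 2-fold. Cyclin A2 (Ccna2) had 199, 211 and 208 CPM in DMSO, 99.7, 109 and 113 at 6 h and 33.8, 34.7 and 31.7 at 24 h CPM (log2 fold change -1.68, SE 0.05, adjusted p = 1.5e-23), and cyclin B2 (Ccnb2) had 21.2, 22.7 and 23.6 CPM in DMSO, 12.4, 13.8 and 12.3 at 6 h and 3.46, 2.88 and 4.21 at 24 h CPM (log2 fold change -1.87, SE 0.13, adjusted p = 2.5e-14). Foxm1, the transcription factor of the G2/M genes, fell by 1.32 and the kinase Aurkb by 1.23. Cenpe (-0.30) and Tpx2 (-0.34) changed least. Replication genes fell less, with 25 of 31 lower and 4 higher (median -0.42), against 35.4% and 36.9% of all genes. Tk1 had 28.1, 29.3 and 31.3 CPM at 6 h and 9.35, 9.89 and 9.98 CPM at 24 h (log2 fold change -1.59, SE 0.079, adjusted p = 7.6e-18) and Tyms fell by 1.08. Among those that rose, cyclin E1 (Ccne1) changed by 0.56, E2f1 by 0.36 and Gins2 by 0.42, the last 2 named after their values were seen. Of 68 clustered histone genes only 8 had enough reads to be tested, 5 of them lower and none higher. Histone mRNAs lack poly(A) tails, so their counts in mRNA libraries are uncertain, and Hist1h2af, for example, had 2.5, 1.31 and 3.24 CPM at 6 h and 0.203, 0.42 and 0.124 CPM at 24 h.

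Many mitotic promoters carry a CHR element, searched as TTTGAA on both strands. It stood in 14 of 19 windows of the mitosis list (73.7%), against 14.3% of all windows, and CCAAT in 17 of 19 (89.5%). The E2F letters (TTTCCCGC or TTTGGCGC) stood in 8 of 25 replication windows (32.0%), against 3.55%. The windows of Ccnb2, with the largest fall of the list, and of Hmmr, a spindle protein whose change differed most but for Cenpf between the WT and Nrf1-KO lines, are shown with the matches in capitals.
Ccnb2 (chr9:70421505-70421804, minus strand): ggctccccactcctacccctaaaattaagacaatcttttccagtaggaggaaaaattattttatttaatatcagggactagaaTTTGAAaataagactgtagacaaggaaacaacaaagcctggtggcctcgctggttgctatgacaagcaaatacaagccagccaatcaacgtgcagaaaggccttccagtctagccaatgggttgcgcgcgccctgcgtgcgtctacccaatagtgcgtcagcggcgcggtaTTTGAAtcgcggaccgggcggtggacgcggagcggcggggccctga
Hmmr (chr11:40733388-40733687, minus strand): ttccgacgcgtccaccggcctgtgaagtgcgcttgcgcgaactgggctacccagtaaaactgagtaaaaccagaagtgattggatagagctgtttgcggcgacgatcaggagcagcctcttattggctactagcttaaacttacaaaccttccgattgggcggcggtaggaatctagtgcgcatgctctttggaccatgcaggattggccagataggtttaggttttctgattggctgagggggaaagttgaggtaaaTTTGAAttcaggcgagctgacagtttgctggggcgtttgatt
They begin at bases -167 and 5 of Ccnb2 and 9 of Hmmr.

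Of 17 p53 targets, genes of growth arrest and death, 11 fell and 1 rose, against 35.4% and 36.9% of all genes. Fas, a death receptor, had 9.38, 8.86 and 8.68 CPM in DMSO, 78.3, 72.2 and 65.4 at 6 h and 14.9, 14.9 and 14.5 at 24 h CPM (log2 fold change -2.29, SE 0.074, adjusted p = 1.3e-22), an early rise that receded. Mdm2, the p53 ubiquitin ligase, was the member that rose (0.21). Bbc3 (PUMA) fell by 1.13. Among 17 BCL2 family, caspase and IAP genes 6 rose and 7 fell, about the shares over all genes (36.9% and 35.4%). Bmf, a BH3-only killer protein, had 32.2, 29.6 and 30.0 CPM in DMSO, 3.11, 2.99 and 3.01 at 6 h and 0.813, 0.6 and 0.868 at 24 h CPM (log2 fold change -2.0, SE 0.23, adjusted p = 3.8e-09), and Bcl2l11 (BIM) had 21.5, 19.4 and 20.9 CPM in DMSO, 7.66, 6.92 and 6.63 at 6 h and 10.4, 9.11 and 8.24 at 24 h (log2 fold change 0.36, SE 0.12, adjusted p = 0.0076). The later rise of Bcl2l11 was not called without replicate 3 at 6 h (0.28, adjusted p = 0.065). Casp9 rose by 0.69 and Birc2 fell by 0.96. Bcl2 fell by 0.38, and Tert, near 1 CPM in each library, changed by 0.49 (adjusted p = 0.19).

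Genes of translation and respiration moved by small amounts. Of 78 cytosolic ribosomal protein genes 54 rose and 6 fell (median 0.21), none of them 2-fold, against 36.9% and 35.4% of all genes called. Rps19 rose by 0.52, and Rps2 fell by 0.53 (24.7% of stretches shared) and Rpl41 by 0.40. These genes have many processed pseudogenes, so small changes are uncertain. Of 24 ribosome biogenesis genes 12 rose and 6 fell, against the same shares over all genes. They ran from Nop58 (-0.62) and Ubtf (-0.53) to Pes1 (0.49) and Nhp2 (0.70). Of 70 nuclear-encoded respiratory chain subunits 28 rose and 27 fell, near the shares over all genes (36.9% and 35.4%), with Atp5l higher by 0.54 and Ndufa7 lower by 0.63. Cox6a2 and Cox7b2 were the extremes of this list (-2.43 and 1.97), both with few reads in all 6 libraries, and Cox7b2 was not called without replicate 2 at 24 h (adjusted p = 0.139).

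The BET bromodomain genes, whose proteins the study inhibited in other experiments, and those of the elongation factor P-TEFb changed little. Of these 8 genes 4 rose and 2 fell, against 36.9% and 35.4% of all genes. Hexim1, an inhibitor of P-TEFb, had 66.5, 61.1 and 64.6 CPM in DMSO, 41.1, 41.7 and 40.9 at 6 h and 61.9, 64.2 and 67.7 at 24 h CPM (log2 fold change 0.65, SE 0.047, adjusted p = 8.7e-14), returning to its DMSO level. Myc had 51.3, 56.7 and 46.7 CPM in DMSO, 123, 118 and 117 at 6 h and 78, 74.9 and 74.5 at 24 h CPM (log2 fold change -0.66, SE 0.051, adjusted p = 5.8e-13), and Brd2 fell by 0.21. Of 11 circadian clock genes 6 rose and 4 fell, against the same shares over all genes. Dbp, a clock output factor, had 40.7, 36.2 and 39.4 CPM in DMSO, 7.58, 6.7 and 7.38 at 6 h and 1.12, 1.14 and 0.806 at 24 h CPM (log2 fold change -2.83, SE 0.2, adjusted p = 4.1e-14), and Per3 fell by 1.34. Nr1d1 (REV-ERB alpha), which represses the clock gene Arntl, rose from 28.7, 25.5 and 24.9 to 79.7, 74.2 and 76.1 CPM (log2 fold change 1.54, SE 0.072, adjusted p = 1.9e-18), and Per1 by 0.98. Hours in culture differ between the 2 groups as well as hours of CFZ, and with DMSO at no stated time these cannot be told apart.

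Of the 12 largest rises, Prl2c2, Rnf183, Bpifc and Nrcam started from less than 2 CPM in each 6 h library, while others, such as Cryab, were already expressed. Prl2c2 (proliferin), chromosome 13 from 12996125 to 13005383, had 0.0758, 0.146 and 0.904 CPM at 6 h and 78.7, 77 and 74.2 CPM at 24 h (log2 fold change 7.65, SE 0.16, adjusted p = 1.7e-27). Close copies lie beside it, and 46% of its read-length stretches are shared with them. Rnf183, a ubiquitin ligase, was at 0 in all DMSO libraries, 0.455, 0.437 and 0.301 CPM at 6 h and 11.2, 10.2 and 10.5 at 24 h (log2 fold change 4.70, SE 0.22, adjusted p = 6.6e-18). Bpifc had 1.44, 1.09 and 1.66 CPM at 6 h and 19.5, 16.4 and 17.2 CPM at 24 h, and Nrcam, a neuronal adhesion molecule, had 0.834, 1.02 and 0.603 CPM at 6 h and 10.2, 9.11 and 10.4 CPM at 24 h. The decoy receptors for the death ligand TRAIL, Tnfrsf23 and Tnfrsf22, rose together. Tnfrsf23 had 33.4, 33.7 and 34.3 CPM at 6 h and 267, 252 and 256 CPM at 24 h (log2 fold change 2.93, SE 0.049, adjusted p = 2.4e-30), and Tnfrsf22 had 11.7, 10.6 and 11.5 CPM at 6 h and 91.4, 78.8 and 81.1 CPM at 24 h (log2 fold change 2.88, SE 0.069, adjusted p = 3.1e-26). They are neighbours of similar sequence, with 6.72% and 12.6% of their stretches shared.

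Whether the step from 6 h to 24 h was the same without NFE2L1 was tested as the interaction of genotype and time over the CFZ libraries of both lines. Nfe2l1 itself stood at 413, 416 and 427 CPM at 6 h and 209.5, 202 and 201 CPM at 24 h in Nrf1-KO cells, below every WT library of the same time. The interaction was more positive in WT for 2616 genes (22.2%) and more negative for 2438 (20.7%), with a median over all genes of 0.00. Mitotic genes fell less in WT than in Nrf1-KO cells in 24 of 24 cases, with a median change of -1.12 in WT and -2.58 in Nrf1-KO. Cenpf, a kinetochore protein, stood at 139, 124 and 127 CPM at 6 h and 58.2, 58.4 and 53.6 at 24 h in WT, and at 148, 134 and 130.2 and 3.8, 5.27 and 3.23 in Nrf1-KO (difference of log2 changes 3.85, SE 0.13, adjusted p = 5.6e-21). The spread of the groups was narrow beside that gap. Of the actin, SRF and YAP list 13 of 18 also fell less in WT (-0.73 against -1.43). Collagens and matrix proteins fell in both lines, 21 of 21 in each (medians -1.66 and -1.36), with 13 more negative and 3 more positive in WT. Col3a1 fell by 2.71 in WT, and by 0.89 in Nrf1-KO (difference -1.82, SE 0.061, adjusted p = 5.6e-21), while the difference for Col1a1 was 0.15, SE 0.13, adjusted p = 0.38. The change of antioxidant genes was more negative in WT for 15 of 18 members, among them Prdx1 (difference -0.78) and Gsta4 (-1.24), and that of ribosomal protein genes for 71 of 78, with medians of 0.21 and 0.60. The later change of 1 of the 14 core proteasome subunits was more positive and that of 2 more negative in WT. In Nrf1-KO cells 9 of the 14 rose and none fell in this step (median 0.22, and 0.20 in WT). Of the 19 regulatory subunits 3 were more positive and 6 more negative, against 22.2% and 20.7% of all genes.

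**Figure D5:**
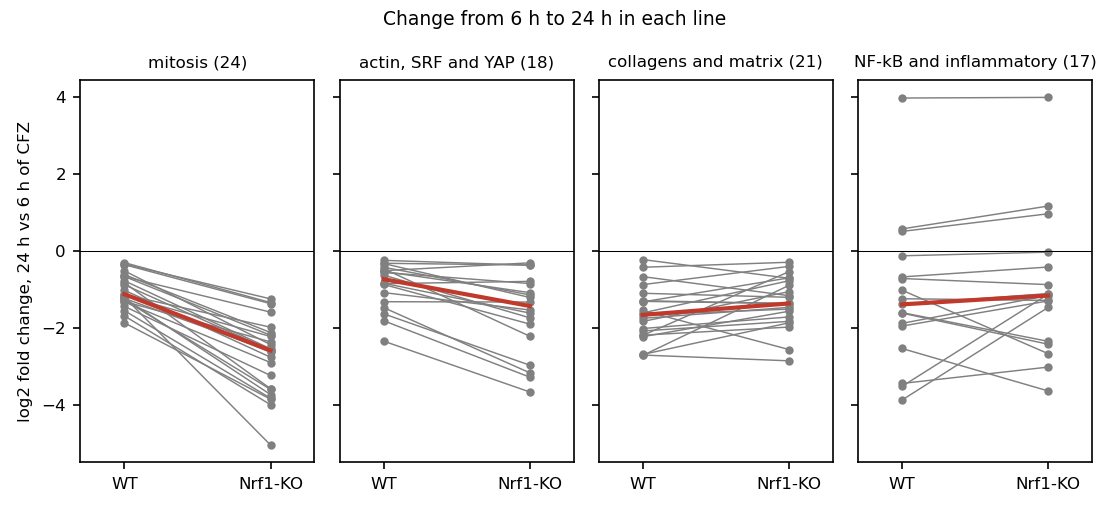
Each grey line joins a gene's log2 fold change of 24 h against 6 h in WT and in Nrf1-KO cells, and the red line joins the list medians. All 24 mitotic genes lie lower in Nrf1-KO, with medians of -1.12 and -2.58, and the other lists are drawn on the same axis.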

How the data were processed

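RNA of WT and Nrf1-KO NIH-3T3 cells was sequenced by the authors as mRNA libraries, and they deposited 1 table of raw counts of reads per gene symbol for 18 libraries. The submitters' notes name STAR and DESeq2. The genome build, annotation and use of strand are not given in the sources used here, so reads of overlapping or near-identical genes could be assigned in unknown ways. Symbols damaged into dates (27, of which 19 were tested) were not named.

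Groups came from the labels. Counts were analysed in R 4.3.3 with edgeR 4.0.16 (filterByExpr with minimum count 10 and minimum total 15, TMM, 1 quasi-likelihood model of the 6 groups over 18 libraries, Benjamini-Hochberg adjustment over the 11762 genes tested, threshold 0.05). Biological variation between replicates was low (common coefficient 3.13%), which lets small changes pass. Early changes were called at 2-fold or more against DMSO, and courses by the tests of 24 h against 6 h and of 24 h against DMSO. Gene lists are described by counts and medians without a set test. The members and lists were chosen with earlier results of these data known. Named genes were the 12 largest changes each way (mean of at least 50 counts, no overlap of groups, no provisional symbols), the 4 largest of each course, the 2 extremes at each end of every list, the genes the study measured by RT-PCR and the 4 largest interactions each way; some of these are not reported here. Positions and stretches of 1 read length shared between genes are from GENCODE M21 (GRCm38), which need not be the authors' annotation. Promoter windows of 300 bases are from RefSeq (GRCm38.p6) by symbol, for 9373 genes, a gene with several windows counting if any matched. The alternatives were DESeq2 1.42.0, other scalings, filters and subsets of libraries, a replicate block, other fold minimums and each WT library left out.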

Additional observations from a re-analysis of the deposited data

Results flagged for a closer look

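The change from 6 h to 24 h of CFZ differed between the WT and Nrf1-KO lines, by the interaction of genotype and time in edgeR, for the genes below. Each value is the WT log2 change minus the Nrf1-KO log2 change, with 3 libraries in each of the 4 groups. The first set comprises the 4 largest differences in each direction among genes with a mean of at least 50 counts. The second set comprises the other named genes whose changes passed the test in both lines with opposite signs and differed by at least 1 on the log2 scale, a choice made after the values were seen.

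Cenpf differed by 3.85, SE 0.13, adjusted p = 5.6e-21, with changes of -1.20 in WT and -5.05 in Nrf1-KO. Hmmr differed by 3.27, SE 0.1, adjusted p = 1.5e-21, with -1.27 and -4.54. The kinetochore gene Nuf2 differed by 3.02, SE 0.12, adjusted p = 3.8e-19, with -0.97 and -3.99. Gen1, a resolvase of recombination intermediates, differed by 2.84, SE 0.24, adjusted p = 2.4e-11, with -1.28 and -4.12. All 4 fell in both lines and fell more in Nrf1-KO.

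Smoc2 differed by -2.68, SE 0.64, adjusted p = 0.00098, with -6.02 in WT and -3.35 in Nrf1-KO, at 0, 0.24 and 0.062 CPM in the WT libraries at 24 h. Serpinb1a, a protease inhibitor, differed by -2.50, SE 0.14, adjusted p = 2.1e-15, falling in WT (-1.59) and rising in Nrf1-KO (0.91). Srxn1, which repairs oxidised peroxiredoxins, differed by -2.44, SE 0.048, adjusted p = 5e-27, with 0.46 and 2.90. Its levels were 444, 432 and 424 CPM at 6 h and 594, 598 and 597 at 24 h in WT, and 144, 142 and 148 and 1074, 1083 and 1084 in Nrf1-KO. Ccl2 differed by -2.41, SE 0.089, adjusted p = 6e-20, with -3.88 and -1.46.

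Atf3 changed by -0.13 in WT and 1.06 in Nrf1-KO (difference -1.19, SE 0.061, adjusted p = 1.9e-16). Prickle2 changed by 0.97 and -0.39 (difference 1.36, SE 0.14, adjusted p = 3.8e-09). No cause of these differences was tested.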

How the results depend on the processing

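Of the 198 named genes, 181 kept their direction and side of the threshold under all 18 alternatives, and none reversed. The 50 changes of side fell on the others, those narrated being given beside their values. Of 33 lists, 27 kept the sign of their median throughout. The share of higher genes among those called ran from 46.8% to 53.7%, and the median of all genes moved by at most 0.04. The counts of courses were the part most open to settings. With library size alone 99 early falls receded in place of 60. Without a count filter 426 early falls held in place of 282. With only the 9 WT libraries in the fit 33 early falls returned in place of 58. With an early minimum of 1.5-fold, early rises divided into 636 that grew, 272 that held, 280 that receded, 49 that returned and 45 that reversed, and early falls into 694, 578, 166, 133 and 77 in the same order, since more genes enter. With the early minimum at 2-fold and a minimum of 1.5-fold on the later step, 106 early rises grew, 291 held and 43 receded, and 31 early falls receded. No count of genes moved by over 1.5 times on leaving out a library. With the replicate block, 4388 genes were higher and 4219 lower, 608 and 812 of them at least 2-fold, and 5189 genes had a genotype by time interaction. Same-numbered libraries of the 2 times did not deviate together (correlations 0.031, 0.038 and -0.055), so the numbers were not taken as pairs. With the block Psma6 and Dnaja4 passed the threshold as small falls (adjusted p = 0.043 and 0.048). DESeq2 moved no count of genes or courses by over 1.5 times. Depth limits genes of few reads, and 663 of the genes tested had a mean below 10 counts in the 6 WT CFZ libraries.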

Other observations

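Some genes of the naming rule belong to no list above. Among early rises, Gpr176, an orphan receptor, reversed to below DMSO (13, 14.5 and 12.5 CPM in DMSO, 29.8, 29 and 27.2 at 6 h and 7.22, 6.66 and 8.06 at 24 h CPM, log2 fold change -1.97, SE 0.081, adjusted p = 5.9e-20 by edgeR's quasi-likelihood test). Cdr2 returned (38.4, 44.6 and 43.9 CPM in DMSO, 81.5, 86 and 88.3 at 6 h and 40.3, 39.2 and 40.4 at 24 h CPM, log2 fold change -1.09, SE 0.051, adjusted p = 1.6e-18). Mocos, which activates molybdenum enzymes, held (7.51, 8.74 and 6.5 CPM in DMSO, 34.4, 34.7 and 30.2 at 6 h and 30.7, 31.8 and 32.5 at 24 h CPM, log2 fold change -0.06, SE 0.066, adjusted p = 0.42), and passed as a fall without replicate 3 at 6 h (-0.16, adjusted p = 0.042).

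Of early falls that receded, Abca1, the cholesterol exporter, had 8.11, 7.56 and 8.22 CPM in DMSO, 3.41, 2.77 and 3.46 at 6 h and 6.2, 6.12 and 6.51 at 24 h CPM (log2 fold change 0.97, SE 0.13, adjusted p = 9.4e-08), Lpar2, a lysophosphatidic acid receptor, 10.2, 10.6 and 11.3 CPM in DMSO, 3.56, 3.42 and 4.52 at 6 h and 8.44, 7.14 and 7.25 at 24 h CPM (log2 fold change 0.97, SE 0.14, adjusted p = 3.1e-07), and Patz1, a transcription factor, 24.5, 24.7 and 25.7 CPM in DMSO, 12.4, 11.7 and 10.9 at 6 h and 21.1, 21.6 and 20.8 at 24 h CPM (log2 fold change 0.86, SE 0.083, adjusted p = 8.6e-11). Ly6c1, a surface protein, fell at both steps (24.9, 24.7 and 25.6 CPM in DMSO, 10.9, 13.2 and 10.2 at 6 h and 1.22, 0.72 and 1.43 at 24 h CPM, log2 fold change -3.37, SE 0.17, adjusted p = 2.1e-17). Csf1r, a marker of macrophages named after its value was seen, averaged 0.0479 CPM at 6 h and 6.26 CPM at 24 h, and Cdh5, of endothelium, 0.307 and 2.87 CPM (CPM by library size, WT, n = 3).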
